A study of Mus musculus with 15 samples.

Results

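The genes of the unfolded protein response and of protein folding were followed in the ventricles of 15 mice. The set held 36 of the 36653 gene identifiers in the deposited table and was chosen by gene symbol. It contained 15 chaperones and folding enzymes of the endoplasmic reticulum (ER), 4 genes of ER-associated degradation, 3 stress sensors, 8 transcription factors and targets of the stress response and 6 heat shock proteins of the cytosol. Levels are in FPKM, sequenced fragments per kilobase of gene, corrected for library size. All 36 genes were in the table, and all 36 passed the filter for testing, a mean of at least 0.5 FPKM over the 15 libraries.

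All animals were wild-type C57BL/6 mice aged 10 weeks, and poly(A)-selected RNA of the ventricle was sequenced; the tissue label reads heart and the extraction protocol names the ventricle. In the AngII plus OA group, 5 mice carried a pump under the skin that delivered the blood-pressure-raising peptide angiotensin II (AngII) at a rate of 1000 ng/kg/min. They also received the monounsaturated fatty acid oleic acid (OA) daily, with 160 mg/kg given to each mouse in a volume of 0.3 mL. In the AngII group, 5 mice carried the same pump without OA. In the vehicle group, 5 mice were given saline. The length of treatment is not given in the sources used here. The AngII libraries serve in both AngII comparisons, once as the treated group and once as the baseline for OA, so a difference in 1 of them enters both.

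The ER folds secreted and membrane proteins, and its chaperones and disulfide isomerases keep unfinished chains from aggregating. When unfolded protein accumulates there, the sensors IRE1 (Ern1), PERK (Eif2ak3) and ATF6 act through the transcription factors XBP1, ATF4 and cleaved ATF6 to raise chaperone, degradation and amino acid genes. Misfolded protein in the cytosol is handled separately, by heat shock proteins under the transcription factor HSF1. In the heart these pathways are best known from pressure overload and ischaemia.

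The libraries held 24.5 to 28.3 M reads in genes, and a summed cardiomyocyte marker level of 17255 to 37777 FPKM placed every library in heart muscle. AngII replicate 2 stood apart from the other 14 libraries on the first principal component, at 66.1 against a range of -17.2 to 8.98. In that library 13 of 13 cardiomyocyte markers lay below the other 4 AngII libraries, and 6 of 6 atrial, 4 of 4 adipocyte, 4 of 5 mesothelial and 5 of 6 B cell markers lay above them. Calls among the 36 genes are given with and without it. The share of summed FPKM in genes of the mitochondrial genome was 42.4% ± 3.10 in AngII plus OA ventricles, 41.1% ± 5.20 in AngII ventricles and 47.1% ± 2.52 in vehicle ventricles (SD, n = 5 each), and this share enters every other gene's FPKM.

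The 36 genes spanned a wide range of levels. Hspa8, the constitutive cytosolic Hsp70, had the highest mean over the 15 libraries at 593 FPKM, and Hspa5 (157 FPKM), Calr (137 FPKM), Pdia3 (100.8 FPKM) and P4hb (87.2 FPKM) led the ER genes. The transcription factor Atf4 averaged 83.7 FPKM. The sensors Eif2ak3 (1.77 FPKM) and Ern1 (1.42 FPKM), and Asns (1.74 FPKM), Chac1 (1.93 FPKM) and Trib3 (2.97 FPKM), were the lowest. The fewest reads behind a value were 18 for Chac1, 60 for Sdf2l1 and for Hspa1b, 75 for Asns and 84 for Trib3, against at least 44049 for Hspa8.

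**Figure D1:**
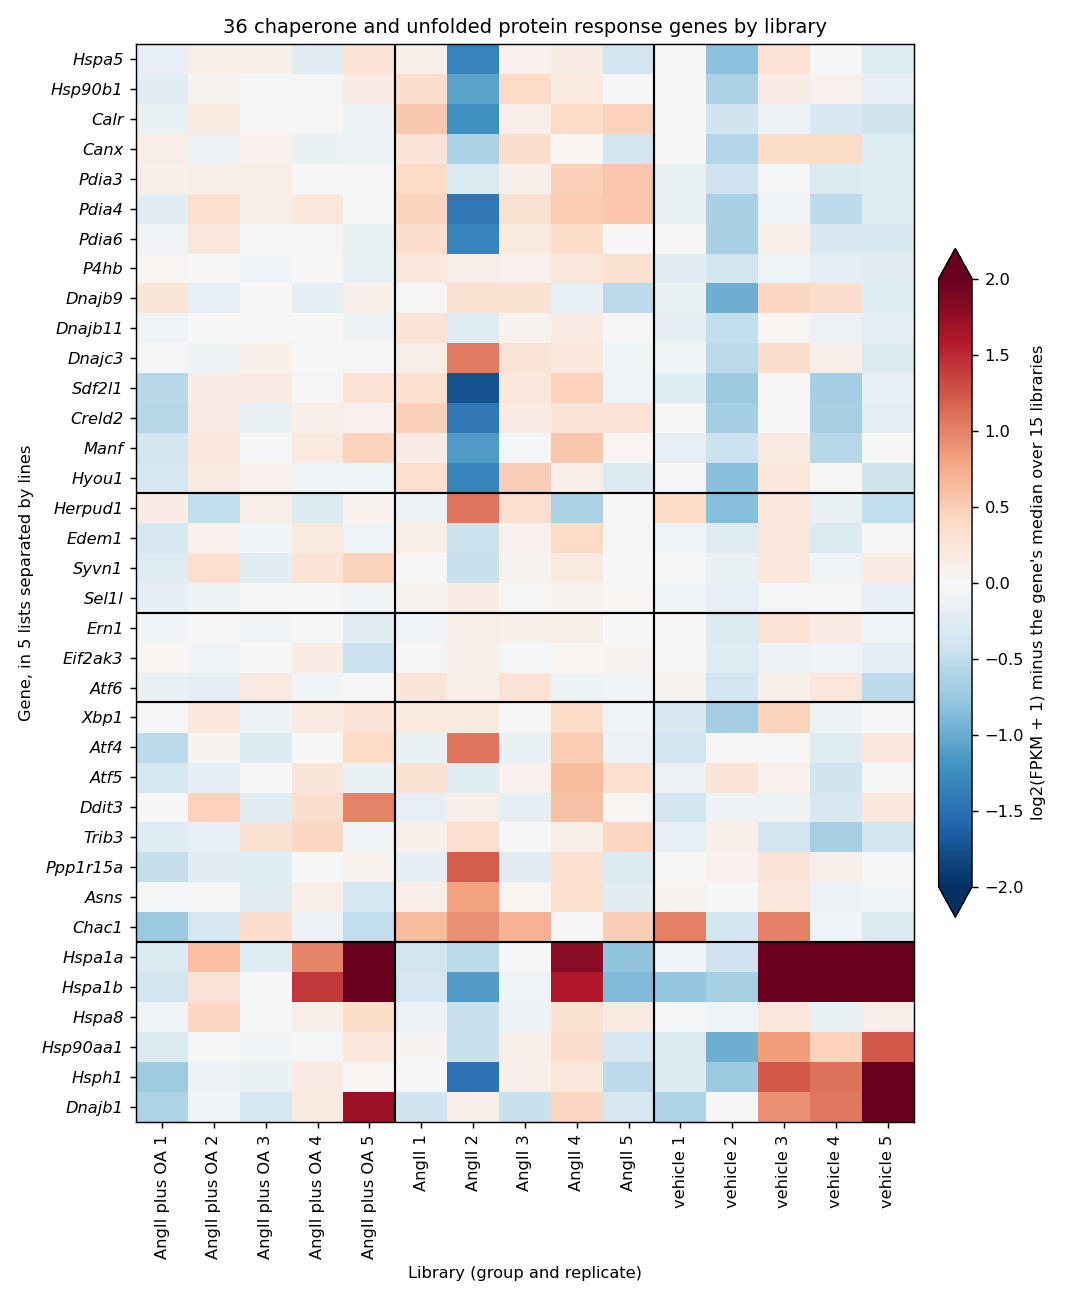
Level of each of the 36 genes (rows, in 5 lists separated by lines) in each of the 15 libraries (columns), as log2(FPKM + 1) minus the gene's median over the 15 libraries; red is above and blue below that median, and colours saturate beyond 2 in either direction. AngII replicate 2 is blue across most ER chaperones, and vehicle replicates 3 to 5 are red across the heat shock genes Hspa1a, Hspa1b, Hsp90aa1, Hsph1 and Dnajb1.

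In AngII ventricles against vehicle ventricles, 1 of the 36 genes passed the test, the disulfide isomerase subunit P4hb, which rose. Over all 13121 genes tested, 1.5% passed (197 genes, limma on log2(FPKM + 1) with Benjamini-Hochberg adjusted p under 0.05) and 1.27% passed as higher, 166 against 31 lower. That split became 103 against 57 with each library shifted to 1 median, 69 against 40 after quantile normalization and 86 against 37 with FPKM rescaled without mitochondrial genes. Of the 36 genes, 27 had a positive difference, beside 8625 of all 13121, with a median of 0.16 on the log2 scale beside 0.07 for all genes tested. The median of the 36 was 0.09 with FPKM rescaled without mitochondrial genes, beside 0.009 for all genes. It was 0.07 beside -0.01 with each library shifted to 1 median, and 0.06 beside -0.008 after quantile normalization. Unadjusted p was under 0.05 for 4 higher genes (Pdia3, P4hb, Dnajb11 and Trib3) and 2 lower genes (Hspa1b and Hsph1), 6 in all, beside 16.6% of all genes, 13.3% higher and 3.29% lower.

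In AngII plus OA ventricles against AngII ventricles, 0 of the 36 genes passed in limma on log2(FPKM + 1), 0 passed with limma-voom on recovered reads, and 0% of all genes passed. An unadjusted p under 0.05 was reached by 2 genes, P4hb and Chac1, both at lower levels with OA, beside 6.6% of all genes and 5.25% lower. The median difference of the 36 genes was -0.03, beside -0.05 for all genes, with 19 of 36 negative, beside 8322 of all 13121. Without AngII replicate 2 it was -0.11, beside -0.07, with 27 of 36 negative, beside 9504 of all 13121. The median of the 36 was 0.03 with each library shifted to 1 median, beside 0.009 for all genes, and 0.05 after quantile normalization, beside 0.001. In AngII plus OA ventricles against vehicle ventricles, 0 of the 36 passed by either method, 3 had an unadjusted p under 0.05, all higher (P4hb, Ddit3 and Trib3), beside 3.36% of all genes and 2.58% higher, and the median was 0.09 beside 0.02. Because whole ventricle was sequenced, fewer cells of a type and less RNA per cell cannot be told apart in any of these values.

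Without AngII replicate 2, 4 of the 36 genes passed in AngII against vehicle, all of them ER folding genes and all higher, beside 1.87% of all genes and 1.69% higher. The 4 were Pdia4 (0.78, SE 0.14, adjusted p = 0.0187), Pdia3 (0.61, SE 0.11, adjusted p = 0.0187), Calr (0.63, SE 0.12, adjusted p = 0.0202) and P4hb (0.43, SE 0.09, adjusted p = 0.0235). An unadjusted p under 0.05 was reached by 11 of the 36, all higher, beside 15.8% of all genes, namely these 4 and Hsp90b1, Pdia6, Dnajb11, Sdf2l1, Creld2, Atf5 and Trib3. Fibroblast and macrophage markers were also higher in AngII than in vehicle without that library, 11 of 11 positive in each list with 5 and 3 called, and their part in these calls was not tested. The same 4 genes passed with limma-voom on recovered reads without that library, and Pdia3 and Pdia4 passed with FPKM rescaled without mitochondrial genes, 2 settings chosen after the data had been seen. Leaving out that library in AngII plus OA against AngII gave 0 calls among the 36 and among all genes, 6 of the 36 with an unadjusted p under 0.05, all lower with OA (Calr, Pdia3, Pdia4, P4hb, Atf5 and Chac1), beside 7.47% of all genes and 6.33% lower. The list of ER chaperones and folding enzymes had a median difference of -0.22 in AngII plus OA against AngII without that library and 0.02 with it.

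**Figure D2:**
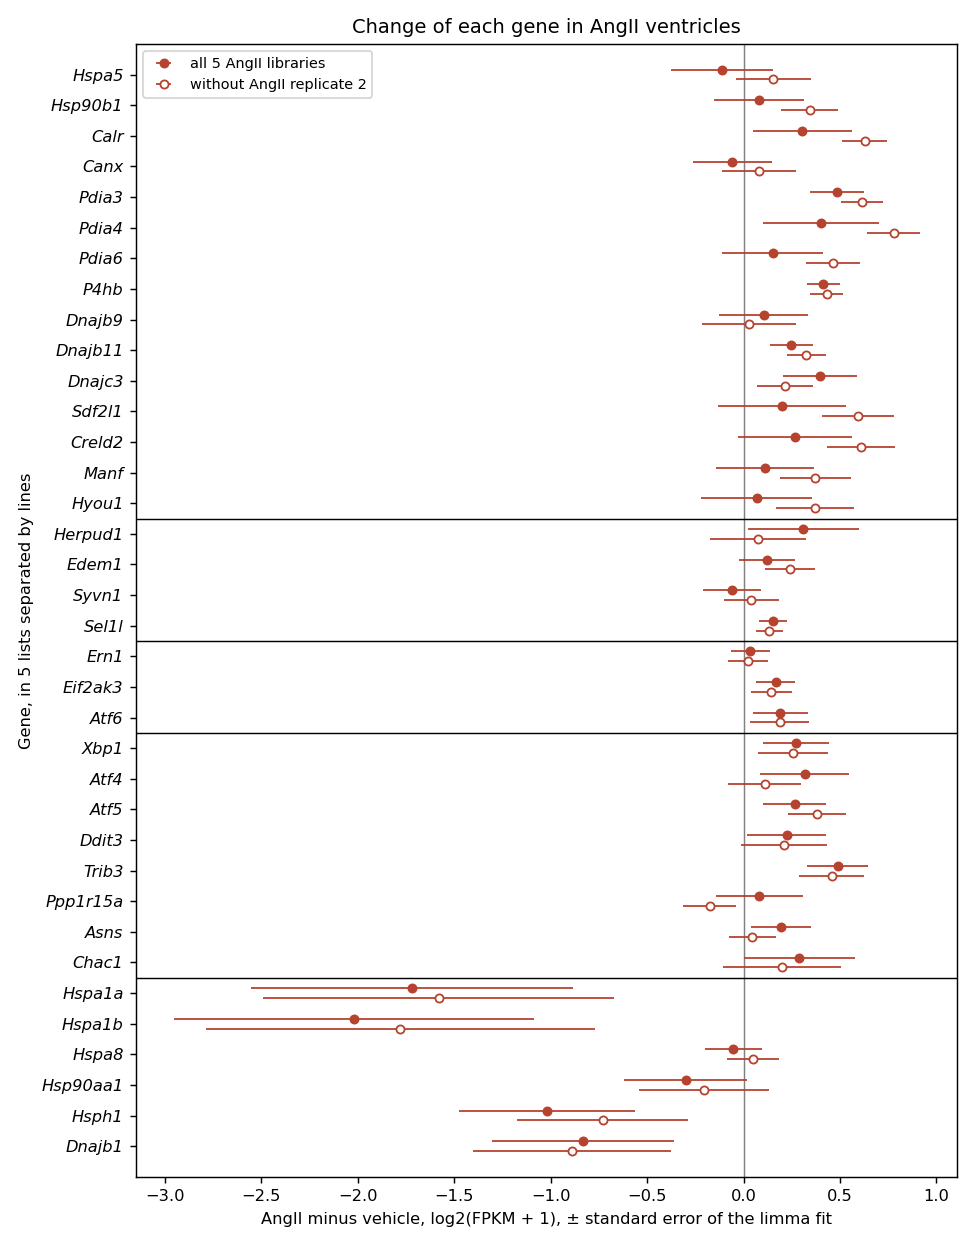
Difference between AngII and vehicle ventricles for each of the 36 genes on the log2(FPKM + 1) scale, with the standard error of the limma fit as bars; filled circles use all 5 AngII libraries and open circles leave out AngII replicate 2. Without that library all 15 ER chaperones and folding enzymes lie right of 0, while Hspa1a and Hspa1b lie far left of it with the widest bars.

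The ER chaperones and folding enzymes had 1 of 15 genes called in AngII against vehicle, and 13 of 15 had a positive difference, with a median of 0.20. That count was 8 of 15 after quantile normalization and 11 of 15 with each library shifted to 1 median or with FPKM rescaled without mitochondrial genes. Without AngII replicate 2, all 15 were positive with a median of 0.37, beside 9508 of all 13121 genes and a median of 0.095. With FPKM also rescaled without mitochondrial genes, 13 of the 15 were positive without that library, with a median of 0.32. P4hb encodes protein disulfide isomerase, which is also the beta subunit of the prolyl 4-hydroxylase that modifies collagen. P4hb had 89.9, 87.9, 84.8, 87.9 and 79.2 FPKM in AngII plus OA ventricles, 102, 95.8, 92.9, 103 and 109 FPKM in AngII ventricles and 74.9, 67.2, 82.8, 76.4 and 74.6 FPKM in vehicle ventricles. The lowest AngII ventricle lay above the highest vehicle ventricle and above the highest AngII plus OA ventricle, so the AngII group overlapped with neither of the others. Its difference was 0.41 on the log2 scale (SE 0.09, adjusted p = 0.0305) in AngII against vehicle. It was -0.22 in AngII plus OA against AngII (SE 0.09, unadjusted p 0.0217, adjusted p = 0.737).

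P4hb was 1 of 2 genes of the 36, with Sel1l, whose AngII values all exceeded the vehicle values, beside 3.13% of all genes. The same 2 genes were also the ones whose AngII plus OA values all lay below the AngII values, beside 1.04% of all genes; both comparisons use the AngII libraries. The P4hb call in AngII against vehicle was kept in 7 of the 19 alternatives planned for it and lost in 12, at log2 differences of 0.26 to 0.45 and adjusted p of 0.0205 to 0.182. It was lost without AngII replicate 1 (0.0733), 4 (0.0724) or 5 (0.0878) and without vehicle replicate 1 (0.0546), 2 (0.0668), 4 (0.0583) or 5 (0.0782). The summed fibroblast markers were 665 to 1239 FPKM in AngII plus OA ventricles, 879 to 1437 in AngII ventricles and 455 to 853 in vehicle ventricles. These sums overlapped between AngII plus OA and AngII ventricles. In AngII plus OA against AngII, 11 of 11 fibroblast markers had a negative difference, with a median of -0.30 on the log2 scale. In limma 0 of them were called, and 7 had an unadjusted p under 0.05, beside 5.25% of all genes lower. Col1a1, a collagen chain, averaged 19.5 ± 7.38, 35.2 ± 15.8 and 10.7 ± 0.698 FPKM in AngII plus OA, AngII and vehicle ventricles (SD, n = 5 each). Summed macrophage markers were 348 to 594 FPKM in AngII plus OA ventricles, 463 to 691 in AngII ventricles and 283 to 401 in vehicle ventricles. In AngII against vehicle 5 of 11 fibroblast and 4 of 11 macrophage markers were called, all higher. Their part in the P4hb difference was not tested.

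Calr encodes calreticulin, a calcium-binding lectin chaperone. Calr had 125, 158, 141, 141 and 128 FPKM in AngII plus OA ventricles, 202, 58.2, 152, 180.0 and 191 FPKM in AngII ventricles and 138, 104, 127, 111 and 104 FPKM in vehicle ventricles. Leaving out AngII replicate 2, the lowest of the 15, the other 4 AngII values all exceeded the vehicle values, as they did for 6 of the 36 genes and 5.68% of all genes, and averaged 181 ± 21.5 FPKM (SD, n = 4), against 117 ± 15.1 FPKM in vehicle ventricles (SD, n = 5). With all libraries the difference was 0.30 on the log2 scale (SE 0.26, adjusted p = 0.594). Pdia3, a disulfide isomerase that works with calreticulin on glycoproteins, ranged from 94.5 to 106.5 FPKM in AngII plus OA, 80.3 to 142 FPKM in AngII and 72.2 to 94.0 FPKM in vehicle ventricles. It was the 1 gene of the 36 whose AngII plus OA values all lay above the vehicle values, beside 0.655% of all genes (a log2 difference of 0.29, SE 0.14, unadjusted p 0.0543). Pdia4, another disulfide isomerase, ranged from 17.7 to 26.8, 7.13 to 31.3 and 13.0 to 19.9 FPKM in AngII plus OA, AngII and vehicle ventricles in that order.

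**Figure D3:**
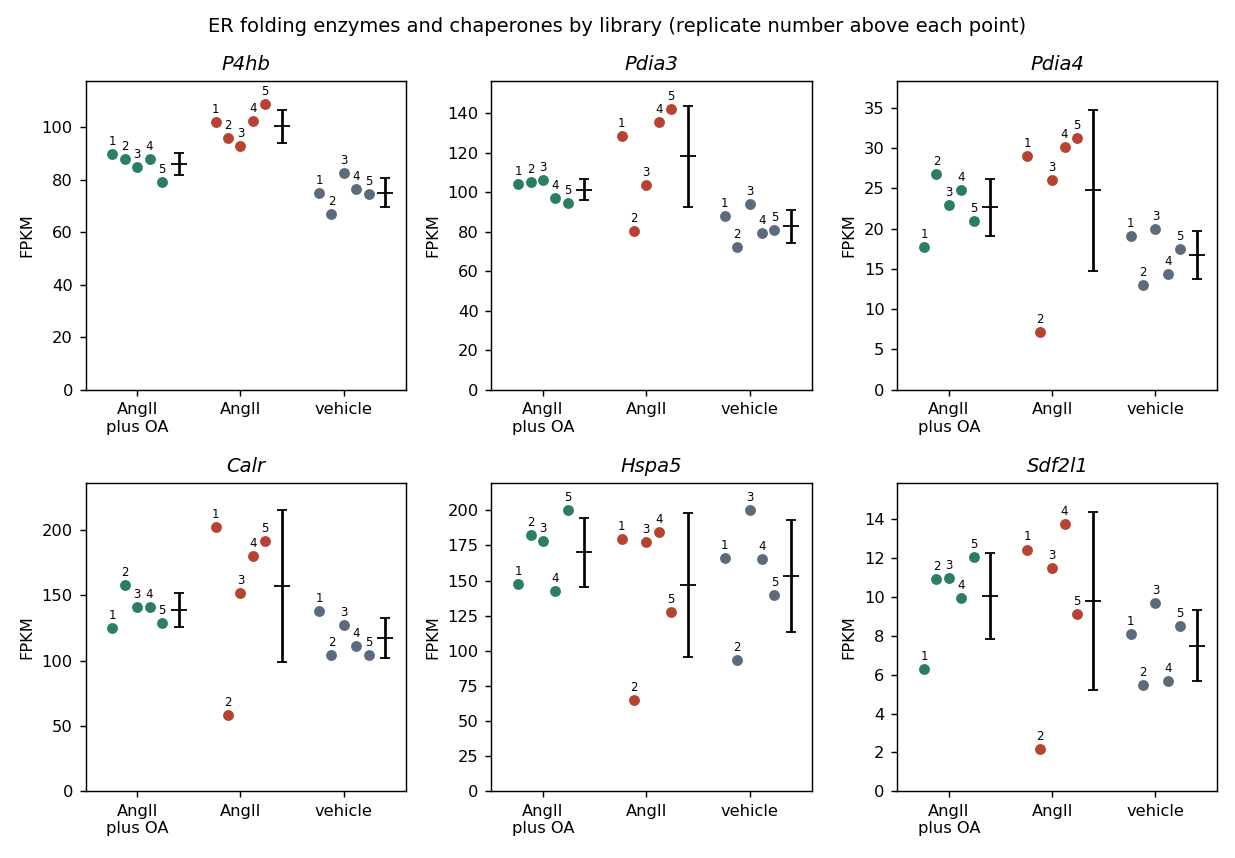
FPKM of 6 ER folding genes in each library (points, replicate number above) of the AngII plus OA, AngII and vehicle groups, with the mean and SD of 5 libraries as the black bar beside each group. P4hb in AngII ventricles (92.9 to 109) lies above both other groups, and AngII replicate 2 is the lowest AngII point of Pdia3, Pdia4, Calr, Hspa5 and Sdf2l1.

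Hspa5 encodes BiP, the Hsp70 of the ER and the usual marker of the unfolded protein response. Hspa5 had 148, 182, 178, 142 and 200.2 FPKM in AngII plus OA ventricles, 179, 65.0, 177, 184 and 127 FPKM in AngII ventricles and 166, 93.3, 200.4, 165 and 140.0 FPKM in vehicle ventricles. The groups overlapped across nearly their whole range, and the 2 lowest values came from AngII replicate 2 and vehicle replicate 2. The difference was -0.11 on the log2 scale (SE 0.26, adjusted p = 0.872) in AngII against vehicle and 0.30 on the log2 scale (SE 0.26, adjusted p = 0.818) in AngII plus OA against AngII. Without AngII replicate 2, AngII against vehicle changed sign (0.15, SE 0.19, adjusted p = 0.726), and AngII plus OA against AngII was near 0 (0.03, SE 0.19, adjusted p = 0.980). Hsp90b1 (GRP94), the Hsp90 of the ER, had 33.8, 41.5, 39.1, 39.0 and 44.7 FPKM in AngII plus OA ventricles, 50.9, 18.3, 52.3, 45.6 and 39.1 FPKM in AngII ventricles and 39.6, 25.2, 44.1, 42.2 and 35.4 FPKM in vehicle ventricles. Its lowest values were in the same 2 libraries, and 0.08 (SE 0.23) separated AngII from vehicle on the log2 scale, or 0.34 (SE 0.15) without AngII replicate 2.

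Less abundant ER stress genes were also low in AngII replicate 2. Sdf2l1, a component of a BiP cochaperone complex, had 6.28, 10.9, 11.0, 9.93 and 12.0 FPKM in AngII plus OA ventricles, 12.4, 2.20, 11.5, 13.7 and 9.10 FPKM in AngII ventricles and 8.06, 5.48, 9.70, 5.70 and 8.52 FPKM in vehicle ventricles. AngII replicate 2 was the lowest of the 15 libraries, and the other AngII values overlapped with vehicle replicate 3. Creld2, an ER disulfide isomerase family protein that is secreted under stress, had 13.6, 23.4, 18.5, 22.7 and 22.0 FPKM in AngII plus OA ventricles, 29.3, 7.09, 23.3, 25.0 and 25.2 FPKM in AngII ventricles and 20.3, 12.6, 20.7, 12.7 and 17.9 FPKM in vehicle ventricles. Manf, a secreted ER stress protein described as protective in cardiomyocytes, had 10.5, 16.4, 13.8, 16.1 and 19.6 FPKM in AngII plus OA ventricles, 15.6, 5.87, 13.7, 20.7 and 14.5 FPKM in AngII ventricles and 12.3, 10.1, 16.0, 9.16 and 14.0 FPKM in vehicle ventricles. Both were again lowest in AngII replicate 2, and in AngII against vehicle Creld2 differed by 0.27 (SE 0.30) and Manf by 0.11 (SE 0.25), which became 0.61 (SE 0.18, adjusted p = 0.0910) and 0.37 (SE 0.18, adjusted p = 0.299) without it.

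Dnajb9 (ERdj4), a BiP cochaperone that restrains IRE1, had 24.5, 18.1, 20.5, 17.7 and 22.0 FPKM in AngII plus OA ventricles, 20.9, 25.5, 25.6, 18.2 and 13.9 FPKM in AngII ventricles and 18.6, 9.91, 27.7, 26.5 and 17.1 FPKM in vehicle ventricles. It did not follow the other chaperones, since AngII replicate 2 was among its highest AngII values, and its lowest value was in vehicle replicate 2. Of the other 5 ER genes, none passed in limma and none of them reached an unadjusted p under 0.05 in any comparison except Dnajb11, higher in AngII than in vehicle (0.25, SE 0.11, unadjusted p 0.0435, adjusted p = 0.283). Without AngII replicate 2, Pdia6 also had an unadjusted p under 0.05 in that comparison (0.47, SE 0.14, adjusted p = 0.104). Their means over the 15 libraries were 49.5 FPKM for Canx, the membrane-bound relative of calreticulin, 33.6 for Pdia6, 18.5 for Dnajb11, 16.4 for Dnajc3, which binds PERK, and 5.0 for Hyou1, a BiP nucleotide exchange factor.

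AngII replicate 2 was the lowest of the 15 libraries for 10 of the 15 ER chaperones and folding enzymes, beside 28.5% of all genes tested. It lay below all 4 other AngII libraries for 12 of the 15, beside 43.1% of all genes, with a median log2 difference of -1.35 from their median, beside -0.13 for all genes. Hspa5 stood at 65.0 FPKM there, against 127 to 184 FPKM in the other AngII libraries, Pdia4 at 7.13 against 26.0 to 31.3 FPKM and Sdf2l1 at 2.20 against 9.10 to 13.7 FPKM. The exceptions were P4hb and Dnajb9, which lay within the range of the others, and Dnajc3, at 31.9 FPKM against 14.2 to 18.2 FPKM. The same library was the highest of the 15 for 6 of the 36 genes, beside 20.4% of all genes: Dnajc3, Sel1l, Herpud1 and the stress response genes Atf4, Ppp1r15a and Asns. Atf4 stood at 166 FPKM against 71.5 to 113 FPKM, Ppp1r15a at 24.6 against 8.09 to 13.1 FPKM, Asns at 3.58 against 1.23 to 2.26 FPKM and Herpud1 at 149 against 45.1 to 88.8 FPKM. The library also held the highest atrial marker sum (3127 FPKM, against 83.5 to 667 in the other AngII ventricles) and the lowest cardiomyocyte sum (17255 FPKM, against 28563 to 33045), and their part in these values was not tested. Vehicle replicate 2 was the lowest library for 5 of the 15 ER genes and 9 of the 36, beside 12.9% of all genes.

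The promoters of several of these genes carry the ER stress response element, which runs CCAAT, any 9 bases and then CCACG, and which ATF6 binds together with the factor NF-Y. RefSeq promoter windows on GRCm38.p6, from 250 bases before to 50 bases after each start, were searched on both strands. A window was given for 31 of the 36 genes; Manf, Hyou1, Atf6, Hspa8 and Hsp90aa1 had none. The element stood in 39 of all 32851 windows (0.119%) and in those of 8 of the 31 genes, namely Hspa5, Calr, Hsp90b1, Canx, Pdia6, Dnajc3, Creld2 and Syvn1. The whole window of Hspa5 (chr2:34771840-34772139, plus strand) is shown 5′ to 3′ because BiP is the reference target, with the element, 65 to 47 bases before the start, in capitals.
Hspa5: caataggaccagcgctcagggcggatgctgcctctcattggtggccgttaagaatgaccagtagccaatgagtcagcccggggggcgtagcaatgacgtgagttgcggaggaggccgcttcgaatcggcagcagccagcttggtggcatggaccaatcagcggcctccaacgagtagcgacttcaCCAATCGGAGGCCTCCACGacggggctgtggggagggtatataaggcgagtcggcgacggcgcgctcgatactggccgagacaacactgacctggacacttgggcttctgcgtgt
For the other 7 genes the element is shown with up to 20 bases on each side, in the direction of the gene, so that a copy on the opposite strand begins with CGTGG. Hsp90b1 has 2 copies.
Hsp90b1: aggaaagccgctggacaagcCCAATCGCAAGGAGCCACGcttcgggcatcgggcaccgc
Hsp90b1: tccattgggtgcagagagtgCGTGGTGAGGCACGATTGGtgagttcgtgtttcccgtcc
Calr: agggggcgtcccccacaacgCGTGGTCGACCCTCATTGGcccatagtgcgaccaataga
Canx: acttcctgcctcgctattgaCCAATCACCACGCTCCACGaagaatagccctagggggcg
Pdia6: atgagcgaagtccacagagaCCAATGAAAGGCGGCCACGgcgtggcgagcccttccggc
Dnajc3: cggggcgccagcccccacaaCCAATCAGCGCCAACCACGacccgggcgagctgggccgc
Creld2: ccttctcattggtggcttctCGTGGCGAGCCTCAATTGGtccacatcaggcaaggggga
Syvn1: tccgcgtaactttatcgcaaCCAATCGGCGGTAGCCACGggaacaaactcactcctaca
These sites lie at chr10:86705618-86705676 (Hsp90b1, minus strand) and chr10:86705513-86705571 (Hsp90b1, minus strand), chr8:84847055-84847113 (Calr, minus strand), chr11:50325780-50325838 (Canx, minus strand), chr12:17266471-17266529 (Pdia6, plus strand), chr14:118937807-118937865 (Dnajc3, plus strand), chr15:88819500-88819558 (Creld2, plus strand) and chr19:6046512-6046570 (Syvn1, plus strand). Among the ER chaperones, the 7 with the element had levels in AngII replicate 2 of 0.282 to 1.88 times the median of the other AngII libraries, with a median of 0.364. The 6 with a window and no match had 0.184 to 1.30 times, with a median of 0.685. The ranges overlapped, and Dnajc3, which carries the element, was the highest of all. Other spellings did not count as a match, and Dnajb11 (0.762 times), among the 6, carries a shorter form described below. Manf (0.390 times) and Hyou1 (0.232 times) had no window and are in neither set. A match describes letters in the window and not a bound site.

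ER-associated degradation returns misfolded protein to the cytosol for destruction, and 0 of its 4 genes passed in limma in any of the 3 comparisons. Herpud1, a membrane scaffold of the degradation complex, had 77.7, 49.4, 77.0, 58.2 and 73.7 FPKM in AngII plus OA ventricles, 65.4, 149, 88.8, 45.1 and 70.2 FPKM in AngII ventricles and 93.0, 38.3, 82.2, 63.2 and 49.5 FPKM in vehicle ventricles. The values of the 3 groups overlapped, with the highest in AngII replicate 2 and the lowest in vehicle replicate 2, and AngII differed from vehicle by 0.31 (SE 0.29), or 0.08 (SE 0.25) without AngII replicate 2. Sel1l, which bridges the ubiquitin ligase Syvn1 (HRD1) to its substrates, was among the steadiest genes in the tissue. Sel1l had 6.36, 6.80, 7.42, 7.34 and 7.01 FPKM in AngII plus OA ventricles, 7.77, 8.23, 7.46, 7.80 and 7.57 FPKM in AngII ventricles and 6.97, 6.48, 7.13, 7.40 and 6.46 FPKM in vehicle ventricles. The AngII values lay above all others, yet the difference was small, 0.15 on the log2 scale (SE 0.07, adjusted p = 0.308) against vehicle and -0.14 on the log2 scale (SE 0.07, adjusted p = 0.737) for AngII plus OA against AngII. Syvn1 averaged 6.05 ± 1.54, 5.25 ± 0.933 and 5.48 ± 0.688 FPKM in AngII plus OA, AngII and vehicle ventricles (SD, n = 5 each), and Edem1, a mannosidase-like lectin, 3.62 ± 0.627, 3.94 ± 0.975 and 3.50 ± 0.667 FPKM in the same order. A shorter form of the stress element, ATTGG, any base and then CCACG, stood in 12 of all windows (0.0365%), and 2 of them belonged to genes of the set, Herpud1 (52 to 42 bases before the start) and Dnajb11 (7 to 17 bases after it). They are shown with the element in capitals.
Herpud1: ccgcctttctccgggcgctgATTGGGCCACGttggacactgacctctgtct
Dnajb11: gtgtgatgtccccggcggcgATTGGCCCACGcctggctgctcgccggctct
These lie at chr8:94386357-94386407 (Herpud1, plus strand) and chr16:22857832-22857882 (Dnajb11, plus strand). No window of the set held both forms.

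Of the sensors, Ern1 averaged 1.30 ± 0.13, 1.5 ± 0.141 and 1.46 ± 0.365 FPKM in AngII plus OA, AngII and vehicle ventricles, Eif2ak3 1.76 ± 0.394, 1.93 ± 0.129 and 1.62 ± 0.205 FPKM, and Atf6 8.70 ± 0.995, 9.66 ± 1.30 and 8.47 ± 2.05 FPKM (SD, n = 5 each). In limma 0 of the 3 passed in any comparison, and no unadjusted p was under 0.05. All 3 had a positive difference in AngII against vehicle (median 0.17), which was 2 of 3 after quantile normalization, with each library shifted to 1 median and with FPKM rescaled without mitochondrial genes. All 3 had a negative one in AngII plus OA against AngII (median -0.13), beside 8322 of all 13121 genes.

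The transcription factors and targets of the stress response had 0 of 8 genes called in limma in any comparison. In AngII against vehicle all 8 had a positive difference, with a median of 0.27, against 7 of 8 after quantile normalization, with each library shifted to 1 median or with FPKM rescaled without mitochondrial genes. Of the 8 genes, 7 were negative in AngII plus OA against AngII, beside 8322 of all 13121 genes. Their median was -0.31, and -0.11 without AngII replicate 2. Xbp1, whose spliced form carries the IRE1 signal, had 27.0, 32.1, 25.6, 31.5 and 33.5 FPKM in AngII plus OA ventricles, 32.0, 32.0, 27.4, 36.3 and 26.2 FPKM in AngII ventricles and 21.8, 16.8, 38.2, 25.7 and 27.7 FPKM in vehicle ventricles. A gene-level FPKM does not separate its spliced and unspliced forms. The groups overlapped and the widest spread was among vehicle ventricles.

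Atf4, the factor translated when PERK or another eIF2alpha kinase is active, had 54.4, 81.9, 65.1, 78.7 and 104 FPKM in AngII plus OA ventricles, 71.5, 166, 71.7, 113 and 72.6 FPKM in AngII ventricles and 60.3, 78.6, 80.0, 66.5 and 91.2 FPKM in vehicle ventricles. AngII replicate 2 was the highest library, and without it the AngII mean was 82.1 ± 20.3 FPKM (SD, n = 4), against 75.3 ± 12.1 FPKM in vehicle ventricles (SD, n = 5), with overlapping values. Atf5, a related factor that also serves the mitochondrial stress response, had 24.4, 27.2, 31.3, 37.3 and 28.3 FPKM in AngII plus OA ventricles, 38.8, 26.4, 33.2, 49.2 and 39.8 FPKM in AngII ventricles and 28.7, 37.4, 33.3, 23.5 and 30.6 FPKM in vehicle ventricles. Its lowest AngII value lay in replicate 2, and the difference in AngII plus OA against AngII was -0.31 on the log2 scale (SE 0.16, adjusted p = 0.737), or -0.43, SE 0.15, adjusted p = 0.644 without that library. Ddit3 (CHOP), the factor tied to cell death under lasting stress, had 14.8, 20.6, 12.5, 19.2 and 30.5 FPKM in AngII plus OA ventricles, 13.1, 16.4, 12.8, 22.8 and 15.3 FPKM in AngII ventricles and 11.2, 13.7, 13.7, 11.6 and 17.3 FPKM in vehicle ventricles. The highest value was in AngII plus OA replicate 5, where the neutrophil marker sum was also the highest of the 15 libraries (96.8 FPKM). AngII replicate 2 had a neutrophil sum of 87.6 FPKM, with Ddit3 at 16.4 FPKM. The part of these sums was not tested. For Ddit3, AngII plus OA against vehicle gave a log2 difference of 0.45 in limma, SE 0.21, unadjusted p 0.0443.

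Trib3, a pseudokinase induced by ATF4 and CHOP, had 2.28, 2.51, 3.85, 4.26 and 2.76 FPKM in AngII plus OA ventricles, 3.20, 3.88, 2.93, 3.27 and 4.30 FPKM in AngII ventricles and 2.53, 3.24, 2.02, 1.48 and 2.01 FPKM in vehicle ventricles. The AngII values lay between 2.93 and 4.30 FPKM and overlapped with vehicle replicate 2, and AngII against vehicle gave 0.49 (SE 0.16, unadjusted p 0.00704, adjusted p = 0.134). AngII plus OA ventricles differed from AngII ventricles by -0.15 (SE 0.16). Asns, asparagine synthetase, an ATF4 target, had 1.54, 1.54, 1.23, 1.87 and 1.05 FPKM in AngII plus OA ventricles, 1.87, 3.58, 1.68, 2.26 and 1.23 FPKM in AngII ventricles and 1.72, 1.61, 2.03, 1.41 and 1.52 FPKM in vehicle ventricles. It was highest in AngII replicate 2, and the other values of the 3 groups overlapped. Chac1, a glutathione-degrading enzyme induced by ATF4, ranged from 0.433 to 2.05 FPKM in AngII plus OA, 1.40 to 3.50 in AngII and 0.846 to 3.82 in vehicle ventricles, on 18 to 163 reads. It had the lowest adjusted p of the 36 genes in AngII plus OA against AngII, with -0.81 on the log2 scale (SE 0.29, adjusted p = 0.706). Ppp1r15a (GADD34), which reverses eIF2alpha phosphorylation, averaged 8.94 ± 1.51, 12.6 ± 7.0 and 10.8 ± 0.891 FPKM in AngII plus OA, AngII and vehicle ventricles (SD, n = 5 each), and 9.62 ± 2.31 FPKM in AngII ventricles without replicate 2 (SD, n = 4).

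**Figure D4:**
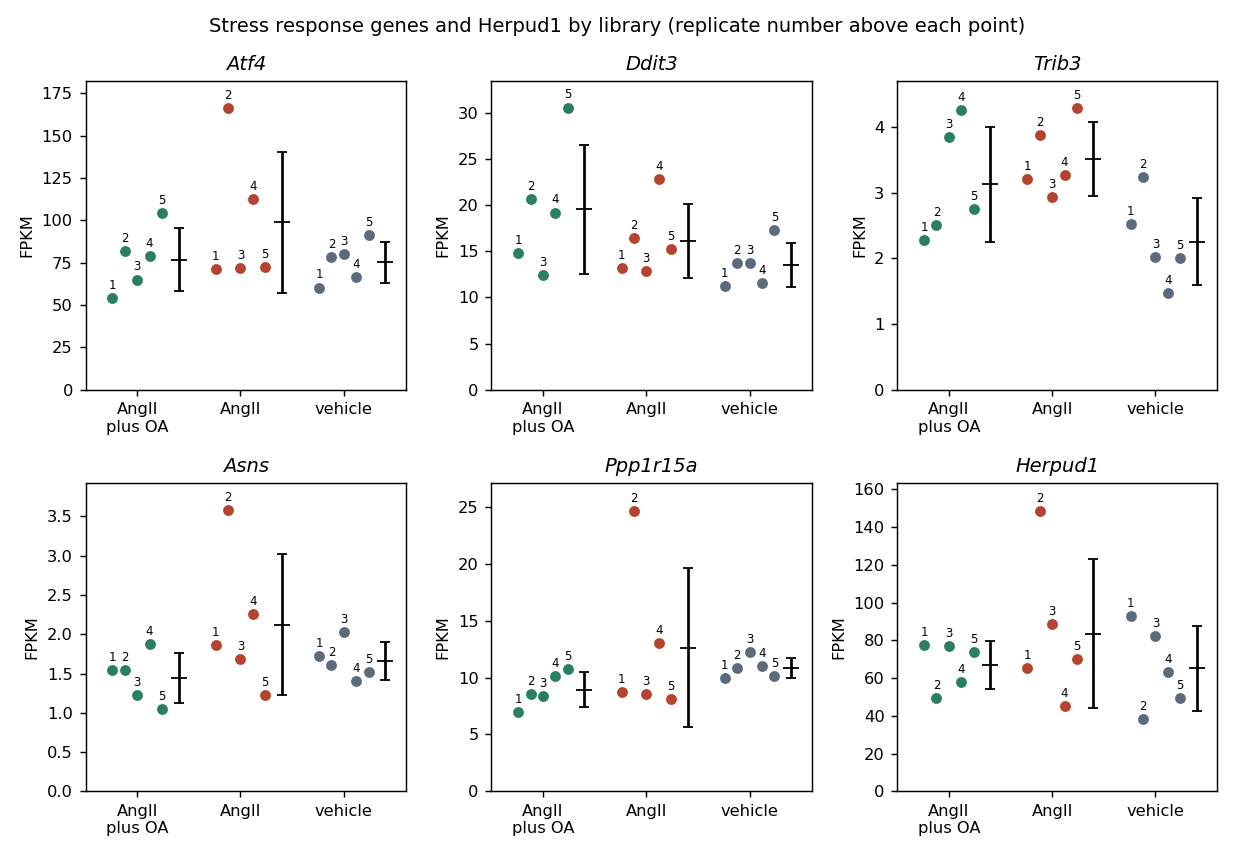
FPKM of Atf4, Ddit3, Trib3, Asns, Ppp1r15a and Herpud1 in each library (points, replicate number above) of the AngII plus OA, AngII and vehicle groups, with the mean and SD of 5 libraries as the black bar beside each group. AngII replicate 2 is the highest point for Atf4 (166), Asns (3.58), Ppp1r15a (24.6) and Herpud1 (149), and AngII plus OA replicate 5 for Ddit3 (30.5).

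The site that ATF4 shares with C/EBP factors, searched as TGATGCAA, stood in 294 of all windows (0.895%) and in those of 2 genes of the set, Chac1 and Herpud1. Other spellings of the site were not searched, so a window without a match, such as that of Asns, may still hold one. The match is shown for Chac1, which had the largest difference of its list in AngII plus OA against AngII, as the reverse complement in capitals, 193 to 186 bases before the start at chr2:119351029-119351076 (Chac1, plus strand).
Chac1: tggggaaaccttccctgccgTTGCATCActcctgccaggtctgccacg
The cyclic AMP response element TGACGTCA stood in 588 windows (1.79%) and in that of Ppp1r15a.

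Hspa1a and Hspa1b gave the widest spread of the 36 genes between libraries of 1 group. They encode the inducible Hsp70 of the cytosol, and their pooled within-group SD on the log2 scale, 1.5 and 1.68, ranked 15 and 7 from the largest among the 13121 genes tested, where the median gene had 0.23. Hspa1a had 1.94, 4.42, 2.0, 6.13 and 25.8 FPKM in AngII plus OA ventricles, 1.77, 1.47, 2.58, 11.5 and 1.05 FPKM in AngII ventricles and 2.36, 1.69, 19.6, 17.1 and 71.2 FPKM in vehicle ventricles. Hspa1b had 2.16, 3.97, 3.08, 9.83 and 21.2 FPKM in AngII plus OA ventricles, 2.24, 0.870, 2.86, 11.4 and 1.21 FPKM in AngII ventricles and 1.40, 1.57, 37.4, 28.5 and 99.9 FPKM in vehicle ventricles. Vehicle replicates 3 to 5 were high and vehicle replicates 1 and 2 low, and AngII plus OA replicate 5 and AngII replicate 4 were high within their own groups. The range over the 15 libraries was 68.0-fold for Hspa1a and 115-fold for Hspa1b.

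The 2 genes are near copies of each other, so their reads may have been split between them. Of the 100-base windows of the Hspa1a transcript, 47.1% were found unchanged in Hspa1b, and Hspa1a shares 19.0% of its exon bases with the opposite-strand gene Gm20481; the strand setting of the counting is not given in the sources used here. Their sum was 4.10, 8.39, 5.08, 16.0 and 47.0 FPKM in AngII plus OA ventricles, 4.01, 2.34, 5.44, 22.9 and 2.26 FPKM in AngII ventricles and 3.76, 3.26, 56.9, 45.6 and 171 FPKM in vehicle ventricles. The sum showed the same high libraries as each gene alone. AngII against vehicle gave -1.72 on the log2 scale (SE 0.83, adjusted p = 0.317) for Hspa1a and -2.02 on the log2 scale (SE 0.94, adjusted p = 0.292) for Hspa1b, neither of which passed.

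Vehicle replicates 3 to 5 were also high for the cofactors. Dnajb1 (Hsp40), which delivers clients to Hsp70, had 4.53, 7.01, 5.67, 8.60 and 26.7 FPKM in AngII plus OA ventricles, 5.41, 8.09, 5.23, 10.5 and 5.71 FPKM in AngII ventricles and 4.56, 7.49, 14.9, 16.6 and 36.9 FPKM in vehicle ventricles. Hsph1 (Hsp105), an Hsp70 nucleotide exchange factor, had 5.72, 9.20, 9.05, 11.3 and 10.3 FPKM in AngII plus OA ventricles, 9.97, 2.92, 10.7, 11.9 and 6.59 FPKM in AngII ventricles and 8.06, 5.53, 24.6, 22.3 and 46.6 FPKM in vehicle ventricles. Hsp90aa1, the stress-inducible cytosolic Hsp90, had 63.0, 77.6, 74.4, 76.3 and 89.6 FPKM in AngII plus OA ventricles, 80.5, 56.9, 84.0, 99.2 and 61.3 FPKM in AngII ventricles and 63.0, 38.8, 139, 107 and 183 FPKM in vehicle ventricles. In vehicle replicates 3 to 5 each of these 3 genes exceeded vehicle replicates 1 and 2. Vehicle replicate 5 was the highest of the 15 libraries for 5 of the 6 heat shock genes, beside 2.88% of all genes. The exception was Hspa8, which had 533, 752, 566, 620.4 and 728 FPKM in AngII plus OA ventricles, 523, 416, 525.8, 701 and 644 FPKM in AngII ventricles and 554, 535, 657, 516 and 619 FPKM in vehicle ventricles. Hspa8 varied 1.81-fold over the 15 libraries and its highest value was in AngII plus OA replicate 2. Of 100-base windows, 62.8% in Hspa8 and 47.5% in Hsp90aa1 recur in other annotated genes, mostly Gm15459 and Gm12346, so part of their reads may have been assigned elsewhere.

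**Figure D5:**
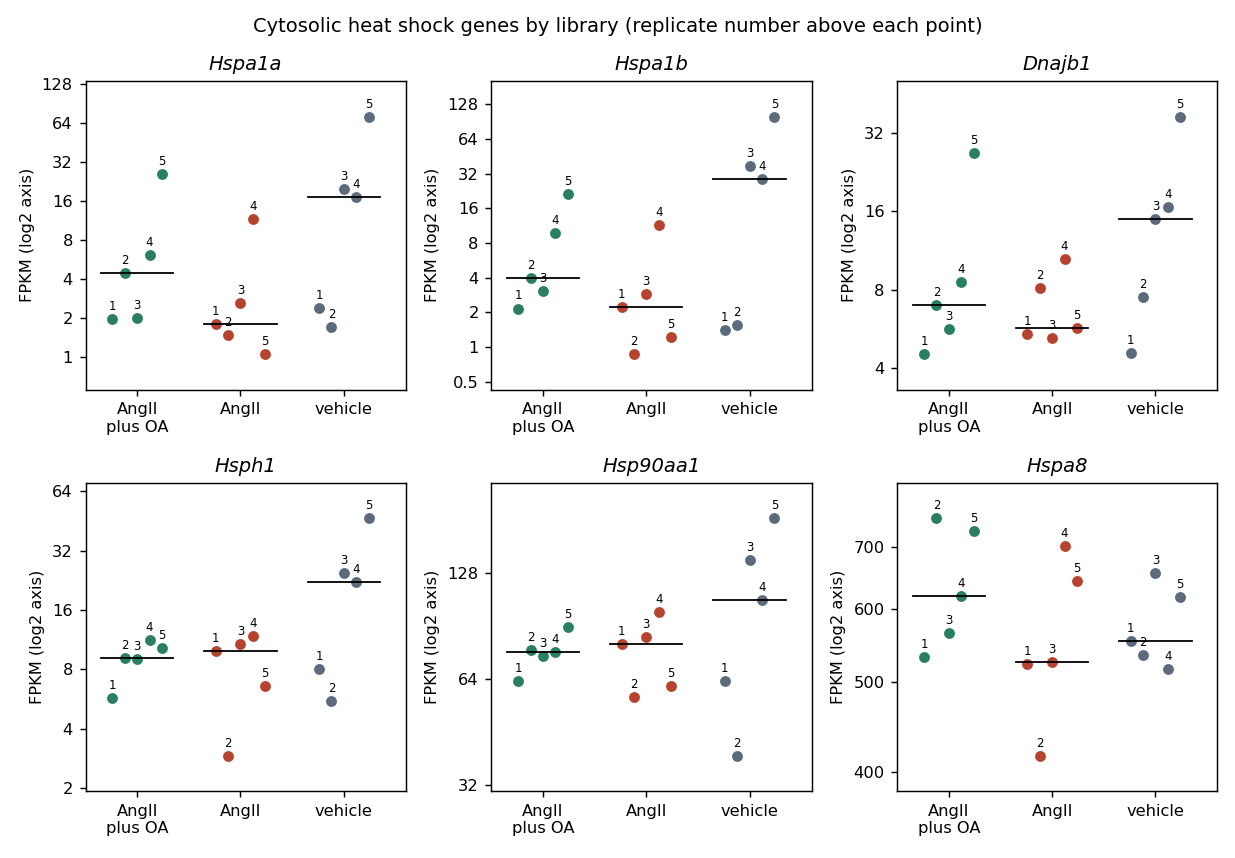
FPKM of the 6 cytosolic heat shock genes on a log2 axis in each library (points, replicate number above) of the AngII plus OA, AngII and vehicle groups; the black line is the median of 5 libraries. Vehicle replicates 3 to 5 stand above vehicle replicates 1 and 2 for all but Hspa8, with Hspa1a at 17.1 to 71.2 against 1.69 and 2.36 FPKM.

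In limma 0 of the 6 heat shock genes passed in any comparison. In AngII against vehicle all 6 had a negative difference (median -0.93), with an unadjusted p under 0.05 for Hspa1b and Hsph1; without AngII replicate 2, 5 of 6 were negative and 0 reached it. In AngII plus OA against AngII all 6 were positive (median 0.25), beside 4799 of all 13121 genes. Without AngII replicate 2 it was 4 of 6, beside 3617. The vehicle ventricles with high values also differed in marker sums. Atrial markers summed to 242, 731 and 763 FPKM in vehicle replicates 3 to 5 against 18.0 and 181 in replicates 1 and 2, and fibroblast markers to 835, 810 and 853 against 455 and 556. AngII plus OA replicate 5 and AngII replicate 4 had atrial sums of 508 and 667 FPKM, and AngII replicate 2, where Hspa1a was low, had 3127 FPKM. AngII plus OA replicate 4 had an atrial sum of 689 FPKM with Hspa1a at 6.13 FPKM. AngII replicate 3 had 247 FPKM with Hspa1a at 2.58 FPKM. The part of these marker sums in the heat shock values was not tested.

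Heat shock elements are repeats of the unit GAA with a base on each side. An inverted pair, GAA, any 2 bases and then TTC, stood in 2564 of all windows (7.80%) and in those of 2427 of 27025 genes. Of the 31 genes of the set with a window, 4 held it, Hsph1, Asns, Hspa1a and Hspa1b. The windows of Hspa1a and Hspa1b had 296 identical bases of 300. The pairs in Hspa1a and Hsph1 are shown in capitals. They were chosen after the levels were seen, and their part in those levels was not tested. The pair in Hspa1a lies 105 to 96 bases before the start, at chr17:34972232-34972281 (Hspa1a, minus strand). The pair in Hsph1 lies 19 to 28 bases after 1 annotated start and 40 to 49 bases after another, at chr5:149636267-149636316 (Hsph1, minus strand).
Hspa1a: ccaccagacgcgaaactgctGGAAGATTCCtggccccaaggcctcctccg
Hsph1: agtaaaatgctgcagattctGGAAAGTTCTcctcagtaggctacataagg
The search found no pair in the window of Dnajb1. Other arrangements of the unit were not searched, so a window without a match may still hold a heat shock element.

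Among other genes of these pathways, 3 of 158 tested passed in AngII against vehicle, all higher and all ER folding genes, beside 1.5% of all genes. Txndc5, an ER disulfide isomerase abundant in fibroblasts, had 16.9, 15.8, 13.9, 16.8 and 12.6 FPKM in AngII plus OA ventricles, 19.4, 25.3, 16.0, 19.7 and 21.7 FPKM in AngII ventricles and 12.6, 12.6, 12.7, 11.3 and 14.0 FPKM in vehicle ventricles. Its AngII values all exceeded the vehicle values (log2 difference 0.64, SE 0.12, adjusted p = 0.0163). Fkbp14, a collagen-folding prolyl isomerase, averaged 3.71 ± 0.476, 5.72 ± 1.05 and 3.37 ± 0.671 FPKM in AngII plus OA, AngII and vehicle ventricles (log2 difference 0.62, SE 0.13, adjusted p = 0.0304 in AngII against vehicle), and Fkbp11, another ER prolyl isomerase, 6.15 ± 1.84, 8.13 ± 1.74 and 4.0 ± 1.23 FPKM (log2 difference 0.88, SE 0.20, adjusted p = 0.0368; SD, n = 5 each). The Fkbp11 call was lost without AngII replicate 2 (adjusted p = 0.0575). Leaving out 1 library at a time gave 0 calls among the 158 without AngII replicate 5 and 8 without AngII replicate 3.

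The list of other ER folding, translocation and glycosylation genes held those 3 calls among 42 genes, 38 of them positive, with a median of 0.22. None passed in limma among 21 other ER-associated degradation genes (18 positive, median 0.20), 19 other signalling genes (16 positive, 0.13), 24 other stress response targets (19 positive, 0.28), 42 other cytosolic chaperones (18 positive, -0.02) and 10 mitochondrial chaperones and proteases (4 positive, -0.09). Without AngII replicate 2 these last lists had 28 of 42 positive (median 0.04) and 5 of 10 positive (median 0.00386). Over all 158 genes an unadjusted p under 0.05 was found for 41 higher and 4 lower genes, beside 13.3% higher and 3.29% lower of all genes, and limma-voom on recovered reads called 2. Among the most abundant genes of the lists without a call were Vcp, the segregase that extracts ubiquitinated protein, at 54.1 ± 6.33 against 54.1 ± 5.08 FPKM, Tmbim6 at 50.9 ± 4.99 against 46.8 ± 2.47 FPKM, Ddit4 at 91.2 ± 41.0 against 36.3 ± 19.1 FPKM, the small heat shock protein Cryab at 1315 ± 312 against 1023 ± 201 FPKM and the mitochondrial Hsp70 Hspa9 at 129 ± 39.5 against 146 ± 34.9 FPKM, each as AngII against vehicle (SD, n = 5 each). Others among them were Rtcb at 18.7 ± 2.19 against 16.9 ± 2.0 FPKM, Slc38a2 at 68.6 ± 22.5 against 51.4 ± 6.00 FPKM, Hsp90ab1 at 412 ± 121 against 411 ± 76.7 FPKM and Hspd1 at 84.5 ± 39.8 against 115 ± 37.6 FPKM. In both comparisons with AngII plus OA, 0 of the 158 passed by limma or by limma-voom. An unadjusted p under 0.05 was found for 9 of the 158 in AngII plus OA against AngII, all lower with OA, beside 5.25% of all genes. Without AngII replicate 2 it was 17, beside 6.33%. In AngII plus OA against vehicle it was found for 5 higher and 1 lower, beside 2.58% of all genes higher and 3.36% in either direction.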

How the data were processed

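Gene-level FPKM values of 15 mouse ventricle libraries were used, 5 in each of 3 groups set by the sample labels, which name biological replicates. The authors deposited 1 table of FPKM for 36653 gene identifiers. Per the submitters' processing notes the tool was HISAT2 2.0.4 and the genome build mm8. The counting program, its annotation and strand setting, and the program behind the FPKM values were not given in the sources used here. For 36464 identifiers a symbol was matched, and 0 value columns belonged to no sample of the series.

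The 36 genes and the gene lists were chosen with earlier results of these data known. FPKM were tested as log2(FPKM + 1), a scale that understates the change of low genes, for the 13121 genes with a mean of at least 0.5 FPKM, with all 15 libraries in 1 fit in limma 3.58.1 (R 4.3.3) with an intensity trend, 2-sided, Benjamini-Hochberg adjusted over all genes tested in each comparison. Standard errors come from this fit. The steps of the values gave whole reads, within 0.02 of a read, for 100% of the 28996 genes above 0, and limma-voom was run on those reads as an alternative. The fit was tested on simulated data with known changes. Depth was 24.5 to 28.3 M reads in genes per library. Other alternatives were a pseudocount of 0.1, a filter at 5 FPKM or none, quantile normalization, a shift to 1 median, FPKM rescaled without mitochondrially encoded genes, a fit of the compared libraries alone, a replicate block and each library left out. Leaving out AngII replicate 2 together with rescaling or with limma-voom was chosen after seeing the data.

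Genes given in every library were a list of 21 and any gene called; Txndc5, Fkbp14, Fkbp11 and the 2 most abundant genes of each list without a call were named by rule, of which 1 gene is not reported here. Sel1l and the ranges of Pdia3, Pdia4, Chac1, Dnajc3 and Ppp1r15a were chosen after their values were seen. Promoter windows came from RefSeq on GRCm38.p6. Tables were summarised in Python 3.11.15 with pandas 2.3.3 and drawn with matplotlib 3.10.9.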

Additional observations from a re-analysis of the deposited data

Results flagged for a closer look

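In 9 of 108 tests of a gene within a group of 5, 1 library stood far from the others in FPKM. Its gap to the nearest value was more than 0.71 of the group's range. Chance flags about 1 in 20 groups where values are normally distributed, which was not checked. The gaps were not taken on the log2 scale, where a high value stands out less. In AngII replicate 2, Pdia4 (7.13 FPKM, nearest AngII value 26.0) and Creld2 (7.09 FPKM, nearest 23.3) were low and Dnajc3 (31.9 FPKM, nearest 18.2) was high. Ern1 was low in AngII plus OA replicate 5 at 1.07 FPKM, with the nearest value at 1.32. Hspa1a was high in 1 library of each group, at 25.8 FPKM in AngII plus OA replicate 5, 11.5 in AngII replicate 4 and 71.2 in vehicle replicate 5, with the nearest values at 6.13, 2.58 and 19.6 FPKM. Hspa1b was high in AngII replicate 4 (11.4 FPKM, nearest 2.86) and Dnajb1 in AngII plus OA replicate 5 (26.7 FPKM, nearest 8.60).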

How the results depend on the processing

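In AngII against vehicle, 197 genes, 1 of the 36 and 3 of 158 other pathway genes were called. These counts were 123, 0 and 1 with FPKM rescaled without mitochondrial genes, 109, 0 and 0 after quantile normalization, and 70, 0 and 0 with only the compared libraries in the fit. A shift to 1 median gave 0 of the 36 and 1 other pathway gene, and no filter gave 72 genes and 1 other pathway gene. Without AngII replicate 2, rescaling gave 117 genes and 2 of the 36, and limma-voom 4 of the 36. Leaving out 1 library gave 49 to 425 genes, 0 to 4 of the 36 and 0 to 8 other pathway genes. In AngII plus OA against AngII it gave 0 to 1 gene, the 1 without AngII replicate 3. With a replicate block the counts were 38, 0 and 0. Libraries that share a number had correlated deviations of -0.35 to 0.43, so the numbers were not taken to pair them. No direction of a call was reversed under these settings. The cause of these differences was not tested. Depth limits Chac1 most, with 18 reads in 1 library.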
